A study of Homo sapiens with 18 samples.

Results

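The genes described here are 10 that encode the nuclear lamina and the inner nuclear membrane proteins that join it to chromatin: LMNA, LMNB1, LMNB2, LBR, TMPO, EMD, LEMD3, BANF1, SUN1 and SUN2. They were taken by symbol from a list of these names, and 10 of 10 were found among the 23686 gene symbols of the deposited tables. All 10 also passed the filter on low counts in both cell lines. Bulk RNA sequencing after removal of ribosomal RNA gave 18 libraries. They came from OCI-Ly1 and TMD8, which are 2 established lines of human diffuse large B-cell lymphoma. OCI-Ly1 is a line of the germinal centre B-cell type and TMD8 one of the activated B-cell type. Each line was given the vehicle alone (0.01% DMSO) or JIB-04 at 150 nM or at 500 nM, and each of these groups has 3 libraries. JIB-04 is a small molecule known as an inhibitor of Jumonji-domain histone demethylases. The media differed, IMDM for OCI-Ly1 and an RPMI medium for TMD8, so line and medium changed together, and the treatment time is not given in the sources used here.

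The 3 libraries of a group are technical replicates per the labels, which do not say whether they came from separate cultures. The SDs and p-values below therefore cover the spread between these libraries, which may be technical only. In bulk RNA, fewer cells that make a transcript and less transcript per cell cannot be told apart. Levels within a line are given as CPM (read counts relative to the library total, a level not corrected for gene length) scaled between libraries by edgeR's TMM method. A gene was called higher or lower where its adjusted p, from edgeR's quasi-likelihood test with Benjamini-Hochberg adjustment over all genes tested, was under 0.05. The 150 nM and 500 nM comparisons of a line share the same 3 DMSO libraries.

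The nuclear lamina is a mesh of intermediate filament proteins under the inner nuclear membrane, built from A-type lamins (the products of LMNA) and B-type lamins (the products of LMNB1 and LMNB2). Silent chromatin that carries methylated histone H3 lysine 9 is held against it by membrane proteins such as LBR, which binds B-type lamins and heterochromatin protein 1, and by proteins with a LEM domain, which bind the DNA-bridging protein BAF. SUN proteins cross the inner nuclear membrane and link the lamina to nesprins and so to the cytoskeleton. Cells of the lymphoid lineage are known for low A-type lamin and for a lamina in which B-type lamins and LBR prevail.

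The OCI-Ly1 libraries held between 17579732 and 32651115 estimated counts and the TMD8 libraries between 9550092 and 20509500. Every replicate pair differed by more than sampling noise. The B cell label was checked against 9 B cell markers, and 9 of 9 had counts in every group. Their sum was 1143 to 1241 TPM (transcripts relative to the library total, corrected for length) in OCI-Ly1. In TMD8 it was 714 to 1369 TPM and lowest at 500 nM. That sum also depends on the part of the total that other transcripts take, such as MIR3687 with 151659 to 243496 TPM per library. On the TMM scaling the median log2 change of the 8 markers tested in TMD8 at 500 nM was -0.21, against 0.04 for all genes. MME was near 0 in TMD8, with group means of at most 0.0151 TPM. Myeloid markers summed to at most 1.53 TPM in any library and epithelial and stromal markers to at most 17.5 TPM. The 5 T cell markers summed to 39.4 to 42.7 TPM with DMSO and 21.9 to 23.9 TPM with 500 nM in OCI-Ly1, and to at most 2.12 TPM in TMD8, where CD3E was at 0; their part in the results below was not tested.

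LMNB1, TMPO and LBR, whose transcripts fell in both lines, and LMNA and LEMD3, which rose, are shown with the 250 bases before a transcript start, to show which letters the promoters of called genes of each direction hold; these 5 were chosen after their values were seen. The sequences are from RefSeq on build GRCh38.p14, which is not the hg19 build named in the submitters' processing notes; 9 of the 10 genes matched an entry, SUN1 being the one that did not. Each is written 5′ to 3′ on the gene's own strand, ending at the base before the start. Capitals mark matches, on either strand, to TTTCGCGC, TTTGGCGC or TTTCCCGC (E2F-type), to TTTGAA or TTCGAA (the cell cycle genes homology region, CHR) and to CCAAT, which reads ATTGG when inverted. LMNB1 has 2 listed starts, with windows at chr5:126776373-126776622 and chr5:126776886-126777135 on the plus strand. TMPO lies at chr12:98515323-98515572 (plus), LBR at chr1:225428822-225429071 (minus), LEMD3 at chr12:65169333-65169582 (plus) and LMNA at chr1:156082323-156082572 (plus).
LMNB1, first start: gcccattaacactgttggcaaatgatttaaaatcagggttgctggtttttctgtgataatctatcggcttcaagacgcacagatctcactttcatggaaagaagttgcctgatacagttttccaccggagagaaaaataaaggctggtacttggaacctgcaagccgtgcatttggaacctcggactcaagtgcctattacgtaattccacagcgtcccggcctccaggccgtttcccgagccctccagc
LMNB1, second start: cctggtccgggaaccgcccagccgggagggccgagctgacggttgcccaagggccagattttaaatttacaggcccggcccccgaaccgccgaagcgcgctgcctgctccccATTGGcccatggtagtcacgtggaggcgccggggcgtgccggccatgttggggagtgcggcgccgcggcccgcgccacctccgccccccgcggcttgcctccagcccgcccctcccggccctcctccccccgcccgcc
TMPO: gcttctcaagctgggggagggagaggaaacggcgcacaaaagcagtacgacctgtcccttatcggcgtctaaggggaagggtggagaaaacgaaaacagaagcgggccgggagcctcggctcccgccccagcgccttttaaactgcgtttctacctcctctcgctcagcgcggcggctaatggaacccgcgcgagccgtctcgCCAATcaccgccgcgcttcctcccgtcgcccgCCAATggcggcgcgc
LBR: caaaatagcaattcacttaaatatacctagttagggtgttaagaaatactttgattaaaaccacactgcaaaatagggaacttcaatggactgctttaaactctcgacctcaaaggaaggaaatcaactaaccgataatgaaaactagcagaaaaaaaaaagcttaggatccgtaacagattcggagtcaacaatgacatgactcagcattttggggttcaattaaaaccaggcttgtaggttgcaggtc
LEMD3: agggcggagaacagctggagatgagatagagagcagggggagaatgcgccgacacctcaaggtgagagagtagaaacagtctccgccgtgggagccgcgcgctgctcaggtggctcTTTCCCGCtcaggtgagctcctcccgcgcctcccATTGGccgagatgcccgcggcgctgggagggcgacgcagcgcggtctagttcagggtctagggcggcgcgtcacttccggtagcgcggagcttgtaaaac
LMNA: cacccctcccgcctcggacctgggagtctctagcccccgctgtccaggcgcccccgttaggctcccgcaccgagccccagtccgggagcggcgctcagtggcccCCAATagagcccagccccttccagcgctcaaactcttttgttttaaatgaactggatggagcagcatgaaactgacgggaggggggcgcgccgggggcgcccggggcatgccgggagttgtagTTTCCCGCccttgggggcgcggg

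The 9 genes have 15 windows of 250 bases, 1 for each listed start. E2F-type and CCAAT matches were in a larger share of these windows than of all windows, and CHR matches were not. These differences were not tested. An E2F-type sequence was present in 2 of the 15, in LEMD3 (TTTCCCGC, first base 134 before the start) and LMNA (TTTCCCGC, first base 23 before the start), against 2.324% of 35116 RefSeq windows of the same length. CHR letters were present in 2 of the 15, in LMNB2 and SUN2, against 14.34% of windows. CCAAT or its inverse was present in 7 of the 15, from 6 genes, EMD, LEMD3, LMNA, LMNB1, SUN2 and TMPO, against 32.01% of windows. Of the 3 falling genes shown, TMPO held 2 CCAAT boxes, LMNB1 an inverted one before its second start, and LBR no match in this window. LMNA has 2 further listed starts, whose windows held no match, and a second TMPO start lies close to the one shown and its window holds the same CCAAT boxes. A match is a description of the letters only.

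At 150 nM JIB-04 none of the 10 genes passed the test in OCI-Ly1, where log2 changes ran from -0.32 to 0.11, and 7 of them did in TMD8. At 500 nM the B-type lamins, LBR, TMPO, BANF1 and SUN2 were lower and LEMD3 was higher in both lines. LMNA was 3.08 times its DMSO level in OCI-Ly1 at 500 nM. In OCI-Ly1 at 150 nM edgeR called 0 of 10 members, where 0.889% of all 15638 genes tested were called (0.748% higher and 0.141% lower); 0 of 10 had an unadjusted p under 0.05, and DESeq2 also called 0. In OCI-Ly1 at 500 nM 2 members were higher and 6 lower, where 53.6% of all genes were called (27.7% higher and 25.9% lower). In TMD8 at 150 nM 2 members were higher and 5 lower, where 44.2% of 15363 genes were called (19.2% higher and 25.0% lower). In TMD8 at 500 nM 2 members were higher and 7 lower, where 60.7% of all genes were called (29.9% higher and 30.7% lower).

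The median log2 change of the 10 members against DMSO was -0.28 in OCI-Ly1 at 500 nM, -0.26 in TMD8 at 150 nM and -0.51 in TMD8 at 500 nM. Over all genes tested the medians of the same comparisons were -0.00, 0.01 and 0.04. The small rises depend on the scaling: on uncentred log2(TPM + 1), which moved the median of all genes in TMD8 at 500 nM from 0.04 to -0.22, LEMD3 there was at 0.04 (adjusted p = 0.755) and SUN1 turned to -0.13. The falls of LMNB1, LBR, TMPO and BANF1 kept their direction on every scaling tried.

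**Figure D1:**
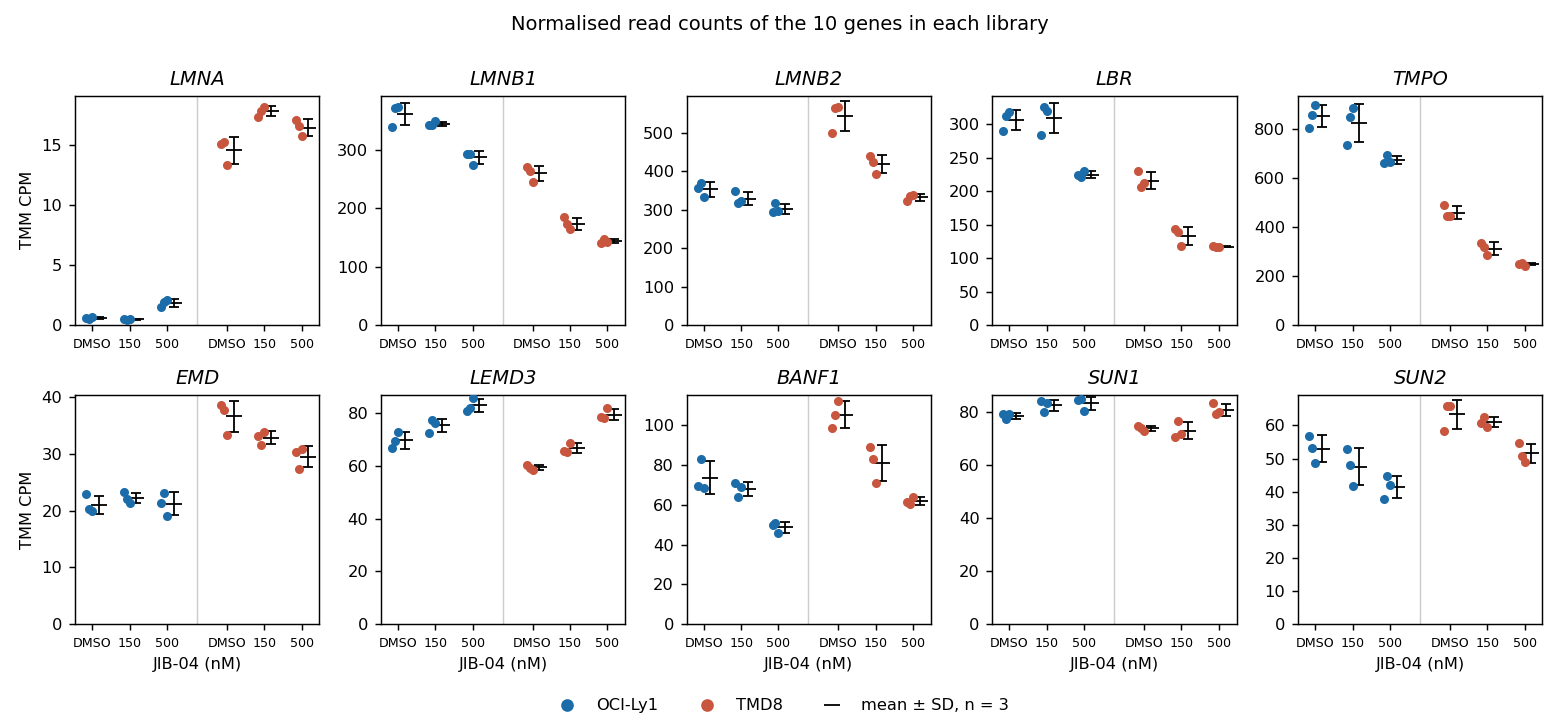
CPM of each of the 10 genes (vertical axis from 0) in each of the 18 libraries, by JIB-04 dose in OCI-Ly1 (blue) and TMD8 (red), with the mean and SD of 3 libraries. LMNB1, LMNB2, LBR and TMPO step down at both doses in TMD8, LEMD3 steps up, and LMNA in OCI-Ly1 lies close to 0 on the scale of TMD8.

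The A-type lamin gene LMNA, which encodes lamins A and C, was the member that differed most between the lines. In OCI-Ly1 its CPM was 0.595, 0.528 and 0.646 with DMSO, 0.484, 0.413 and 0.532 with 150 nM, and 1.49, 1.94 and 2.11 with 500 nM. All 3 libraries at 500 nM lay above all others of the line, and the DMSO and 150 nM libraries overlapped. These values rest on 9 to 64 estimated counts per library, the fewest of any member. The log2 change at 500 nM was 1.62 (SE 0.30, adjusted p = 0.000174), and 544 of the 15638 genes tested had a larger change in either direction. At 150 nM it was -0.32 (SE 0.35, adjusted p = 0.804), and the step from 150 nM to 500 nM was 1.95 (adjusted p = 5.08e-05). With 1 added to every TPM value, which weighs most on a gene this low, the change at 500 nM was 0.63 (adjusted p = 0.00177), and 0.40 (adjusted p = 0.0115) with each library also centred on its median.

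In TMD8, LMNA was measured at 15.1, 15.3 and 13.3 CPM with DMSO, 17.4, 17.9 and 18.3 with 150 nM, and 17.1, 16.6 and 15.8 with 500 nM. The 150 nM libraries were the highest and overlapped with neither other group. The gene was called higher at 150 nM (log2 change 0.30, SE 0.08, adjusted p = 0.00637). At 500 nM its log2 change of 0.19 (95% confidence interval 0.01 to 0.36) missed the threshold with an adjusted p of 0.0656. Both values depend on the scaling: on uncentred log2(TPM + 1) LMNA changed by 0.14 at 150 nM (adjusted p = 0.294) and by -0.19 at 500 nM (adjusted p = 0.109).

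The B-type lamin genes fell in both lines. LMNB1 encodes lamin B1, a permanently farnesylated lamin. Its CPM in OCI-Ly1 was 339.9, 373 and 374 with DMSO, 343, 343 and 349.5 with 150 nM, and 294, 294 and 275 with 500 nM, and the 500 nM libraries were below all others. The log2 change at 500 nM was -0.33 (SE 0.05, adjusted p = 2.45e-05). In TMD8, LMNB1 went from 271, 265 and 246 CPM with DMSO to 185, 173 and 164 with 150 nM and to 141, 148 and 143 with 500 nM. No 2 of these 3 groups overlapped. The log2 changes against DMSO were -0.58 (SE 0.05, adjusted p = 1.67e-07) and -0.85 (SE 0.05, adjusted p = 3.15e-10), and 3.67% of all genes tested had a lower value than LMNB1 in TMD8 at 500 nM.

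LMNB2, which encodes lamin B2, was at 356, 371 and 332 CPM with DMSO in OCI-Ly1, at 349, 317 and 322 with 150 nM and at 294, 318 and 298 with 500 nM. The 500 nM and DMSO libraries did not overlap, and those at 150 nM lay across both. Its log2 change at 500 nM was -0.22 (SE 0.05, adjusted p = 0.00257), the smallest of the 6 called falls in the line; on uncentred log2(TPM + 1) it was -0.08 (adjusted p = 0.286). In TMD8 LMNB2 was at 499.6, 565 and 567 CPM with DMSO, 441, 424 and 394 with 150 nM, and 322, 335 and 339.6 with 500 nM. These are 3 separate levels, each step of which was called: the log2 change was -0.38 at 150 nM (adjusted p = 4.03e-05), -0.71 at 500 nM (adjusted p = 7.49e-09) and -0.34 from 150 nM to 500 nM (adjusted p = 0.000291).

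LBR encodes the lamin B receptor, an inner nuclear membrane protein that binds chromatin and also has a sterol reductase domain. In OCI-Ly1 its CPM was 290.3, 312 and 318 with DMSO, 283, 325 and 319 with 150 nM, and 224, 221 and 231 with 500 nM. The DMSO and 150 nM libraries covered the same range, and the 500 nM libraries were below it. The log2 change was 0.01 at 150 nM (SE 0.06) and -0.45 at 500 nM (SE 0.06, adjusted p = 3.46e-06). TMD8 libraries had 229.8, 206 and 212 CPM with DMSO, 143, 139 and 118 with 150 nM, and 118, 117 and 117 with 500 nM. Most of the fall was present at 150 nM (log2 change -0.70, SE 0.06, adjusted p = 1.52e-07), where 1.31% of all genes tested had a lower value than LBR. At 500 nM the change was -0.88 (SE 0.06, adjusted p = 1.85e-09). The further step of -0.18 from 150 nM to 500 nM was called at an adjusted p of 0.0432, but the libraries overlapped, and it was lost without any of 5 libraries (replicates 1 and 2 at 150 nM and replicates 1, 2 and 3 at 500 nM), with adjusted p up to 0.195.

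Among the genes of LEM-domain proteins and their partner BAF, TMPO and BANF1 fell, LEMD3 rose and EMD fell in TMD8. TMPO encodes the LAP2 proteins, several of which cross the inner nuclear membrane; the gene-level counts do not separate its isoforms, nor lamin A from lamin C. In OCI-Ly1 TMPO was at 803, 854 and 895 CPM with DMSO, 734, 848 and 885 with 150 nM, and 661, 691 and 665 with 500 nM, the 500 nM libraries being below all others. The log2 change at 500 nM was -0.34 (SE 0.06, adjusted p = 0.000114); on uncentred log2(TPM + 1) it was -0.19 (adjusted p = 0.0855). In TMD8 the CPM was 487, 443 and 444 with DMSO, 334, 316 and 284 with 150 nM, and 249.8, 253 and 242 with 500 nM, with no overlap between groups. TMPO changed by -0.56 at 150 nM (SE 0.06, adjusted p = 7.74e-07) and by -0.88 at 500 nM (SE 0.06, adjusted p = 6.52e-10), next to the -0.88 of LBR and the -0.85 of LMNB1. An antisense gene, TMPO-AS1, overlaps TMPO, and the counting is not stated to use strand. Reads from any stretch that both cover therefore cannot be told apart. TMPO-AS1 itself was at 13.2 to 20.1 CPM in every library.

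BANF1 encodes BAF, the small DNA-binding protein that LEM domains bind. Its CPM in OCI-Ly1 was 69.2, 83.0 and 68.4 with DMSO, 71.2, 63.9 and 68.9 with 150 nM, and 49.7, 50.8 and 45.7 with 500 nM. The 500 nM libraries were below the rest, and the log2 change of -0.59 (SE 0.08, adjusted p = 4.05e-06) was the largest fall of a member in OCI-Ly1. In TMD8 BANF1 was at 98.7, 105 and 112 CPM with DMSO, 88.9, 82.9 and 70.9 with 150 nM, and 61.4, 60.5 and 64.1 with 500 nM. Each group was below the one before it without overlap, at log2 changes of -0.39 (SE 0.07, adjusted p = 0.000182) and -0.77 (SE 0.07, adjusted p = 4.57e-08) against DMSO.

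LEMD3 encodes MAN1, a LEM-domain protein that also binds SMAD proteins. It rose in both lines. OCI-Ly1 libraries had 66.6, 69.3 and 72.8 CPM with DMSO, 72.4, 77.2 and 76.1 with 150 nM, and 80.9, 82.0 and 85.5 with 500 nM. The 500 nM libraries were above all others (log2 change 0.25, SE 0.06, adjusted p = 0.0013), and those at 150 nM overlapped with DMSO (0.11, adjusted p = 0.534). In TMD8 LEMD3 was at 60.4, 59.3 and 58.4 CPM with DMSO, 65.7, 65.2 and 68.7 with 150 nM, and 78.3, 77.9 and 81.9 with 500 nM. The 3 groups did not overlap, and the log2 change was 0.17 at 150 nM (SE 0.05, adjusted p = 0.00998) and 0.42 at 500 nM (SE 0.05, adjusted p = 8.64e-07). On log2(TPM + 1) the TMD8 changes of LEMD3 were 0.01 at 150 nM and 0.04 at 500 nM, and with each library centred on its median they were 0.11 (adjusted p = 0.0893) and 0.29 (adjusted p = 0.000211).

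EMD encodes emerin. In OCI-Ly1 its CPM of 22.8, 20.2 and 19.9 with DMSO, 23.2, 22.1 and 21.4 with 150 nM and 21.4, 23.1 and 19.1 with 500 nM overlapped between all groups, and the log2 change at 500 nM was 0.01 (95% confidence interval -0.17 to 0.20). In TMD8 EMD was at 38.6, 37.7 and 33.4 CPM with DMSO, 33.1, 31.6 and 33.8 with 150 nM, and 30.3, 27.4 and 30.8 with 500 nM. The 500 nM libraries were the lowest (log2 change -0.31, SE 0.07, adjusted p = 0.00126). At 150 nM the change was -0.15 (adjusted p = 0.0927), which became -0.22 (adjusted p = 0.0223) without DMSO replicate 3.

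The SUN genes, which encode the inner membrane side of the bridge to the cytoskeleton, parted. SUN1 was at 79.3, 77.2 and 79.0 CPM with DMSO in OCI-Ly1, 84.1, 79.9 and 83.2 with 150 nM, and 84.3, 84.8 and 80.4 with 500 nM. Both drug groups lay above the DMSO libraries, by little: the log2 changes were 0.07 (95% confidence interval -0.04 to 0.18) and 0.08 (-0.03 to 0.20), and neither was called; with library size as the only scaling the 500 nM change was 0.17 (adjusted p = 0.0111), and on centred log2(TPM + 1) it was -0.01. In TMD8 SUN1 was at 74.7, 73.8 and 72.8 CPM with DMSO, 70.6, 76.5 and 71.6 with 150 nM, and 83.3, 79.1 and 79.9 with 500 nM. The 500 nM libraries were above all others, and the log2 change was 0.13 (SE 0.05, adjusted p = 0.028). This call is fragile: it was lost without DMSO replicate 2 (adjusted p = 0.0697), DMSO replicate 3 (0.0872), 500 nM replicate 1 (0.145) or 500 nM replicate 3 (0.0569), and by DESeq2 (0.0926).

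SUN2 went the other way. In OCI-Ly1 it was at 56.8, 53.3 and 48.8 CPM with DMSO, 53.0, 47.9 and 41.9 with 150 nM, and 37.8, 44.6 and 41.9 with 500 nM. The 500 nM libraries were below those with DMSO and overlapped with those at 150 nM; the log2 change against DMSO was -0.36 (SE 0.09, adjusted p = 0.00207), and -0.20 (adjusted p = 0.0994) on uncentred log2(TPM + 1). In TMD8 SUN2 was at 58.3, 65.9 and 65.9 CPM with DMSO, 60.8, 62.5 and 59.5 with 150 nM, and 54.8, 50.8 and 49.0 with 500 nM. The 2 upper groups overlapped and the 500 nM libraries were below both, at a log2 change of -0.30 against DMSO (SE 0.06, adjusted p = 0.000451). GTPBP1, whose gene overlaps SUN2, was higher at 500 nM than with DMSO. Its means were 71.0 against 62.2 CPM in OCI-Ly1 and 108 against 93.0 CPM in TMD8. Without stated strand, reads from any stretch that both genes cover cannot be told apart. EIF1AD and TIMM13, measured as neighbours of other members, had lower means at 500 nM than with DMSO. In OCI-Ly1 the means were 48.7 against 52.6 CPM for EIF1AD and 57.1 against 69.0 CPM for TIMM13. In TMD8 they were 41.6 against 53.8 CPM and 86.4 against 135 CPM. Any sharing of reads with these genes was not tested.

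**Figure D2:**
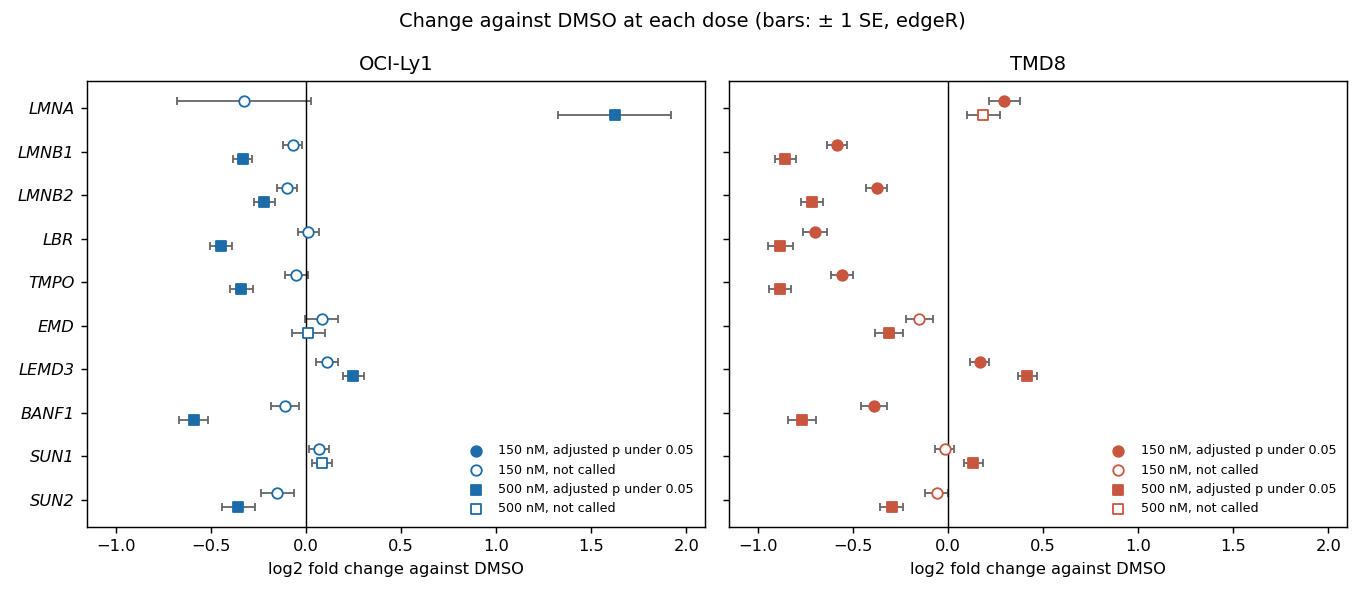
Log2 change against DMSO of each member at 150 nM (circles) and 500 nM (squares) in each line, with bars of 1 SE from edgeR and filled symbols for an adjusted p under 0.05. In OCI-Ly1 every 150 nM symbol is open, and in TMD8 the 150 nM symbols of LMNB1, LMNB2, LBR, TMPO and BANF1 are already well below 0.

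Between the doses themselves, OCI-Ly1 had 1 member higher (LMNA) and 4 lower (LMNB1, LBR, TMPO and BANF1) at 500 nM than at 150 nM, where 46.2% of all genes were called (25.1% higher and 21.1% lower). TMD8 had 2 higher (LEMD3 and SUN1) and 6 lower (LMNB1, LMNB2, LBR, TMPO, BANF1 and SUN2), where 28.7% were called (13.7% higher and 15.0% lower). The steps in TMD8 ranged from -0.38 for BANF1 to 0.25 for LEMD3 on the log2 scale. The SUN1 step of 0.15 (adjusted p = 0.0312) was lost without any of 5 libraries, replicates 1 and 3 at 150 nM and replicates 1, 2 and 3 at 500 nM, with adjusted p up to 0.155.

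TPM, which divides by transcript length, allows the levels of different members to be set side by side within a line. With DMSO in OCI-Ly1, TMPO was the highest at 271 ± 19.2 TPM (SD, n = 3), followed by LMNB1 at 181 ± 13.6. LBR (104 ± 6.49), LMNB2 (97.4 ± 3.03) and BANF1 (92.9 ± 8.73) followed with overlapping neighbours. SUN1 was at 29.1 ± 2.28, EMD at 22.04 ± 1.58, LEMD3 at 18.6 ± 1.23 and SUN2 at 17.0 ± 1.05 TPM, of which LEMD3 and SUN2 overlapped. LMNA came last at 0.336 ± 0.0392 TPM, a level above that of 7.22% of the genes tested.

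In TMD8 with DMSO, LMNB2 (83.3 ± 1.31 TPM), TMPO (81.9 ± 11.9) and BANF1 (73.9 ± 2.72) led with overlapping neighbours (SD, n = 3). LMNB1 (61.7 ± 8.64), LBR (40.8 ± 5.87), EMD (21.5 ± 3.21), SUN1 (15.7 ± 1.93), SUN2 (11.3 ± 0.209) and LEMD3 (8.83 ± 0.914) followed, each pair of neighbours being separate. LMNA was again last at 4.80 ± 0.66 TPM, above 46.3% of the genes tested. At 500 nM the order kept LMNB2 first and LMNA last, while SUN1 (14.3 ± 1.09) stood above EMD (13.3 ± 1.22) with overlap and LEMD3 (9.09 ± 0.789) above SUN2 (7.11 ± 0.0601) without. TPM levels are not set side by side between lines, because 1 transcript takes a large and unequal part of the total: RPPH1 held 63275 to 105654 TPM per library in OCI-Ly1 and MIR3687 151659 to 243496 TPM in TMD8.

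**Figure D3:**
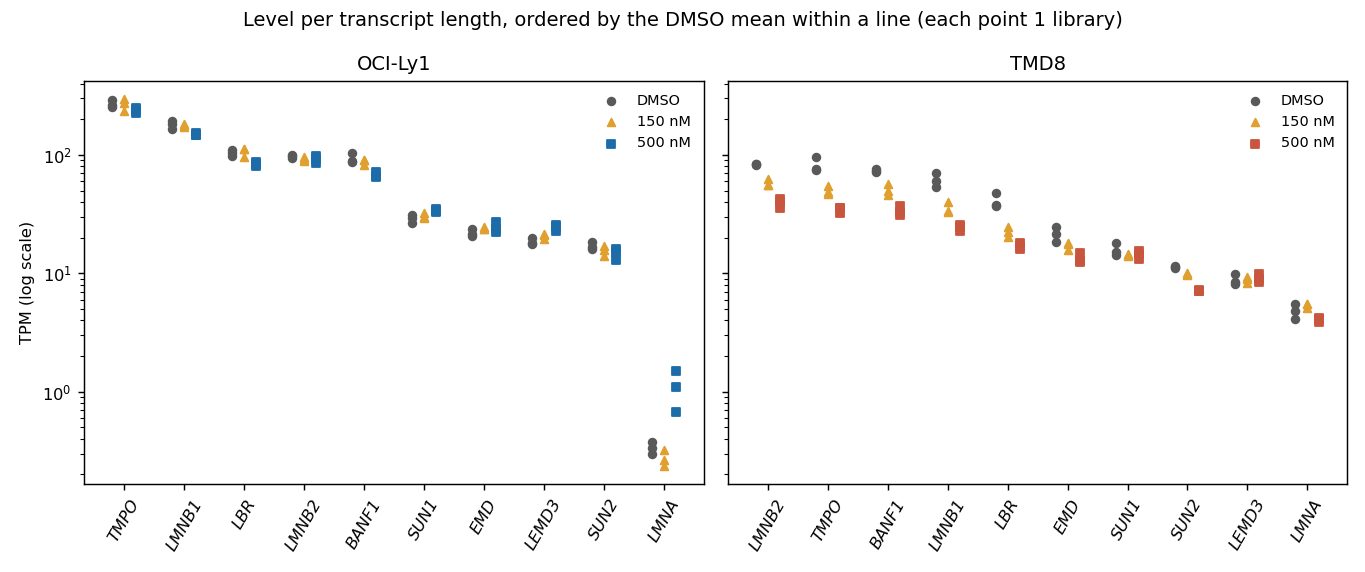
TPM of each member (log scale) in each library, ordered by the DMSO mean within a line, with 1 symbol per library. TMPO leads in OCI-Ly1 and LMNB2 in TMD8, and LMNA is last in both, at 0.336 and 4.80 TPM with DMSO.

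Ratios within a library do not depend on the scaling between libraries. The ratio of LMNA to the summed B-type lamins (TPM of LMNB1 plus LMNB2) in OCI-Ly1 was 0.0012 ± 0.000137 with DMSO, 0.00101 ± 0.00016 with 150 nM and 0.00449 ± 0.00166 with 500 nM (SD, n = 3). In TMD8 the same ratio was 0.033 ± 0.00233, 0.0576 ± 0.00427 and 0.064 ± 0.00284. The drug groups lay above DMSO without overlap in TMD8 at both doses and in OCI-Ly1 at 500 nM. The parts of the ratio moved differently in the 2 lines. In OCI-Ly1 mean LMNA was 1.09 TPM at 500 nM against 0.336 with DMSO. In TMD8 mean LMNA was 4.07 against 4.80 TPM, while LMNB1 was 24.3 against 61.7 and LMNB2 39.4 against 83.3. The higher TMD8 ratio at 500 nM therefore came with less B-type lamin transcript and without more LMNA on TPM. The log2 difference from DMSO at 500 nM was 1.84 in OCI-Ly1 and 0.96 in TMD8, each with p = 0.1 in a two-sided exact permutation test, the smallest p that 3 against 3 libraries allow. With 1 added to each TPM before the ratio, the OCI-Ly1 difference was 0.83.

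LMNB1 was above LMNB2 in OCI-Ly1 and below it in TMD8, at TPM ratios of 1.86 ± 0.173 and 0.74 ± 0.0925 with DMSO (SD, n = 3). At 500 nM the ratios were 1.62 ± 0.0837 and 0.619 ± 0.0167. The log2 difference was -0.20 in OCI-Ly1, where the libraries overlapped (exact permutation p = 0.2), and -0.25 in TMD8, where they did not (exact permutation p = 0.1). The OCI-Ly1 ratio of SUN1 to SUN2 was 1.71 ± 0.199 with DMSO and 2.31 ± 0.209 with 500 nM, and the TMD8 ratio 1.39 ± 0.147 and 2.01 ± 0.142, with log2 differences of 0.43 and 0.54 and no overlap (exact permutation p = 0.1 in each).

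**Figure D4:**
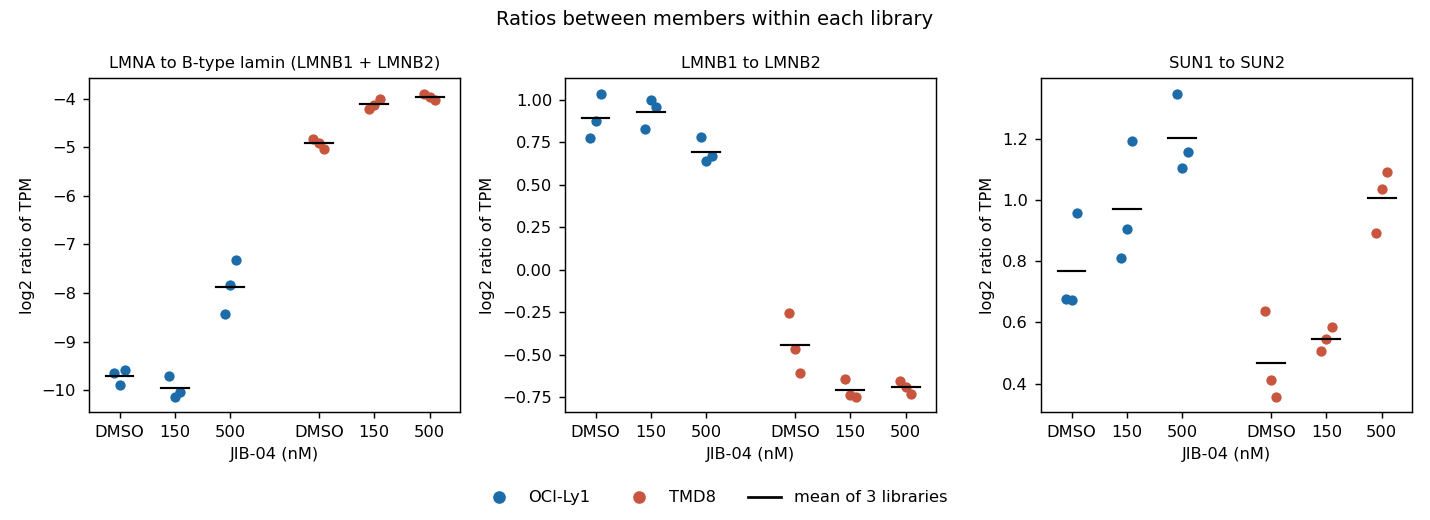
Log2 ratio of TPM between members within each library, by dose in OCI-Ly1 (blue) and TMD8 (red), with the mean of 3 libraries as a line. The LMNA to B-type lamin ratio is higher at 500 nM than with DMSO in both lines, and TMD8 has already moved at 150 nM. Mean LMNA itself was 1.09 against 0.336 TPM in OCI-Ly1 and 4.07 against 4.80 TPM in TMD8 (500 nM against DMSO).

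Before drug, the lines differed in 8 members, where 76.7% of all 16604 genes were called (37.8% higher in OCI-Ly1 and 39.0% lower). With DMSO, OCI-Ly1 had more LMNB1 (log2 difference 0.35, adjusted p = 1.91e-06), LBR (0.38, adjusted p = 6.61e-06) and TMPO (0.77, adjusted p = 3.26e-11) than TMD8. OCI-Ly1 had less LMNA (-4.72, SE 0.16, adjusted p = 3.08e-20), LMNB2 (-0.75), EMD (-0.92), BANF1 (-0.65) and SUN2 (-0.38). For LMNA, the joint scaling of all 18 libraries gave a mean of 0.567 CPM in OCI-Ly1 against 15.3 CPM in TMD8. LEMD3 differed by 0.11 (adjusted p = 0.0612) and SUN1 by -0.03 (adjusted p = 0.584). On uncentred log2(TPM + 1), which moved the median of all genes in this comparison from -0.02 to 0.61, the differences of LMNB2, EMD, BANF1, SUN1 and SUN2 turned positive, LEMD3 was called (0.997), and LMNB1, LBR and LMNA stood at 1.55, 1.33 and -2.11. With each library centred on its median, LMNB1, LBR, LMNA and LEMD3 were at 0.82, 0.61, -2.84 and 0.27 (LEMD3 adjusted p = 4.33e-05), and of the members SUN1 alone had the other sign (0.12). LMNA, LMNB1, LBR and TMPO kept their sign on every scaling tried.

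The difference between the lines in the response was tested itself, as the OCI-Ly1 change minus the TMD8 change. At 150 nM it was called for 4 members, where 23.3% of all genes were called (15.0% with a higher and 8.33% with a lower change in OCI-Ly1): LBR (0.72, SE 0.09, adjusted p = 6.3e-06), LMNB1 (0.52, SE 0.08, adjusted p = 3.38e-05), TMPO (0.52, SE 0.09, adjusted p = 0.000255) and LMNB2 (0.28, SE 0.08, adjusted p = 0.016). All 4 were called lower in TMD8 at 150 nM and none was called in OCI-Ly1, where the LBR change was 0.01. The LMNB2 difference was lost without OCI-Ly1 DMSO replicate 3 (adjusted p = 0.0507) or TMD8 150 nM replicate 3 (0.0584). At 500 nM the difference was called for 6 members, where 46.4% of all genes were called (28.2% higher and 18.1% lower). The change of LMNA was higher in OCI-Ly1 (1.46, SE 0.23, adjusted p = 1.33e-05), and LMNB1 (0.55), LMNB2 (0.52), LBR (0.47), TMPO (0.58) and EMD (0.35) were lower against DMSO in TMD8 than in OCI-Ly1.

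LEMD3 (-0.14, 95% confidence interval -0.29 to 0.01), BANF1 (0.21, -0.02 to 0.44), SUN1 (-0.02, -0.17 to 0.13) and SUN2 (-0.03, -0.26 to 0.20) did not pass the test of a line difference at 500 nM. On uncentred log2(TPM + 1), where the median of all genes was 0.38, all 10 members passed it, with LEMD3, SUN1 and SUN2 at 0.33, 0.34 and 0.40. The EMD difference was lost without OCI-Ly1 500 nM replicate 2 (adjusted p = 0.0504) or TMD8 500 nM replicate 2 (0.0543).

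Other genes of the nuclear envelope, with proliferation genes, were taken from 6 companion lists of 91 symbols, each tested in the same fits and on the TMM scaling only. At 500 nM the median change of all genes tested was -0.00 in OCI-Ly1 and 0.04 in TMD8. At that dose 53.6% of all genes were called in OCI-Ly1 (27.7% higher and 25.9% lower) and 60.7% in TMD8 (29.9% higher and 30.7% lower). In TMD8 at 150 nM 44.2% were called (19.2% higher and 25.0% lower), at a median change of 0.01. The counts below are to be read against these shares. In OCI-Ly1 at 150 nM edgeR called 0 of the 89 tested, 12 had an unadjusted p under 0.05, and DESeq2 called 0. Of the nuclear pore list, 18 of 30 genes fell and 2 rose in OCI-Ly1 at 500 nM (median log2 change -0.17), and 28 of 30 fell in TMD8 at 150 nM (-0.30) and 29 at 500 nM (-0.42), with 0 higher at either dose. NUP62, a nucleoporin of the central channel, was at 136 ± 3.97 CPM with DMSO and 83.4 ± 3.65 with 500 nM in OCI-Ly1, against 757 ± 7.64 and 307 ± 6.68 in TMD8 (SD, n = 3). AAAS, which encodes the nucleoporin aladin, rose in OCI-Ly1 (log2 change 0.32, adjusted p = 0.0011).

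Of 20 proliferation genes, 11 fell and 2 rose in OCI-Ly1 at 500 nM (median -0.16), and 18 fell at 150 nM (-0.48) and 16 fell with 2 higher at 500 nM (-0.63) in TMD8. CCNB1, the mitotic cyclin B1, fell at 500 nM, with log2 changes of -1.27 in OCI-Ly1 and -2.45 in TMD8, while E2F1 rose in OCI-Ly1 (0.29) and PCNA in TMD8 (0.25). These genes moved in the same comparisons as LMNB1, TMPO and LBR, and their part in the members' falls was not tested.

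The LINC complex and torsin list, partners of the SUN proteins and of the nuclear envelope ATPase torsin, had 5 of 9 tested genes higher and 1 lower in OCI-Ly1 at 500 nM (median 0.18), and 4 higher and 2 lower in TMD8 (0.41), so that 6 of 9 were called in each line, near the 53.6% and 60.7% of all genes. SYNE3, which encodes nesprin-3, rose in OCI-Ly1 from 3.83 ± 0.839 to 13.3 ± 0.419 CPM, and SYNE2, which encodes nesprin-2, from 82.2 ± 3.58 to 199 ± 6.63 CPM in TMD8 (SD, n = 3). SPAG4, a SUN-domain gene, fell in OCI-Ly1 (-0.31, adjusted p = 0.0273) and TOR1A, which encodes torsin-1A, in TMD8 (-0.23, adjusted p = 0.00781).

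Of 6 lamin processing genes, 2 rose and 0 fell in OCI-Ly1 at 500 nM (median 0.12), and 2 rose and 3 fell in TMD8 (-0.18). FNTB, which encodes the beta subunit of the farnesyltransferase that modifies lamins, rose in both lines. It went from 7.52 ± 0.903 to 12.03 ± 1.03 CPM in OCI-Ly1, and TMD8 had 12.3 ± 2.60 CPM with DMSO and 18.3 ± 1.07 with 500 nM (SD, n = 3). ZMPSTE24, the protease that matures prelamin A, fell in TMD8 (-0.53, SE 0.07, adjusted p = 2.12e-06).

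Of the other inner nuclear membrane and BAF partner genes, 3 of 11 rose and 2 fell in OCI-Ly1 at 500 nM (median -0.09), and 3 of 12 rose and 6 fell in TMD8 (-0.15). TMEM120A, a nuclear envelope transmembrane protein gene, rose in OCI-Ly1 (0.78, adjusted p = 6.7e-06) and in TMD8 (0.68, adjusted p = 6.12e-05). NRM, which encodes nurim, fell in OCI-Ly1 (-0.40, adjusted p = 0.0123) and went from 31.8 ± 1.07 to 17.0 ± 0.956 CPM in TMD8 (SD, n = 3).

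Of 13 peripheral heterochromatin tethers and readers, 3 rose and 4 fell in OCI-Ly1 at 500 nM (median -0.01), and 1 rose and 8 fell in TMD8 (-0.16); the 7 of 13 called in OCI-Ly1 are near the 53.6% of all genes. CBX3, which encodes heterochromatin protein 1 gamma, fell in both lines. Its CPM was 617 ± 22.6 with DMSO and 482 ± 26.5 with 500 nM in OCI-Ly1, against 198 ± 8.97 and 114 ± 3.84 in TMD8 (SD, n = 3). IFFO1, a lamin-binding filament protein gene, rose in TMD8 (0.91, adjusted p = 8.97e-07).

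**Figure D5:**
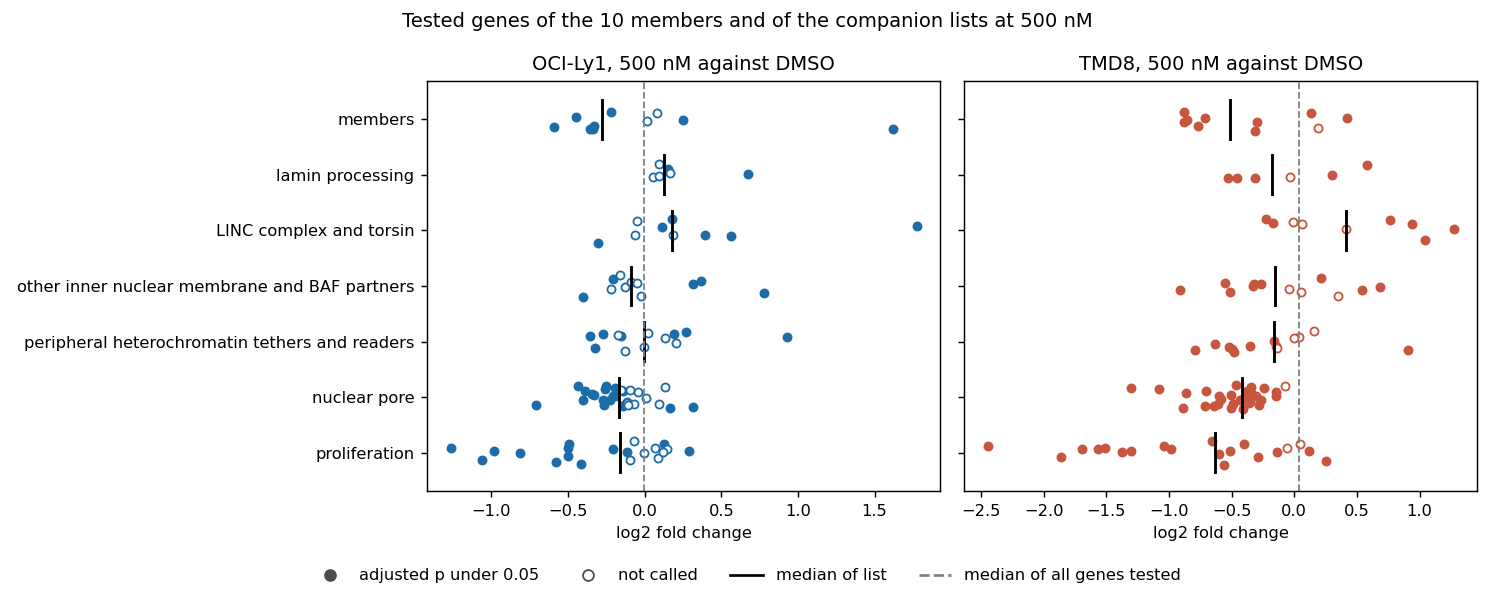
Log2 change at 500 nM against DMSO of each tested gene of the members and of the 6 companion lists, in OCI-Ly1 and TMD8, with filled points for an adjusted p under 0.05, a black bar at each list's median and a dashed line at the median of all genes tested. The nuclear pore and proliferation medians lie below the dashed line in both lines, the pore median at -0.17 in OCI-Ly1 and -0.42 in TMD8 and the proliferation median at -0.16 and -0.63.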

How the data were processed

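Bulk RNA was sequenced in 18 libraries of 2 human lymphoma lines. The authors deposited estimated counts and TPM per gene symbol; the submitters' processing notes name kallisto 0.46.0, R 4.3.1, DESeq2 1.40.2 and build hg19, without stating the role of each. The deposited expected counts were rounded, filtered with filterByExpr and scaled with TMM. Each line's 9 libraries were fitted together with edgeR 4.0.16 (quasi-likelihood test, R 4.3.3), line differences were fitted over all 18, and p-values were adjusted over all genes tested. The deposited TPM, which the authors scaled to transcript length and library total, was used for levels and ratios. Alternatives were DESeq2 1.42.0, limma 3.58.1 on log2(TPM + 1) and log2(TPM + 0.1), other scalings, no filter, the replicate number as a block and leaving out each library. Members and lists were chosen with earlier results of these data known. Of each companion list, the called genes with the largest rise and fall at 500 nM were named where they reached 5 CPM, and for LMNA, LMNB1, LBR and SUN1 the 2 genes with the nearest changes against DMSO were named. One gene that this rule names is not reported here. The fits were tested on simulated data.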

Additional observations from a re-analysis of the deposited data

Results flagged for a closer look

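For 10 results the response to JIB-04 differed between the lines by the test of the difference itself, the OCI-Ly1 log2 change minus the TMD8 log2 change in edgeR's fit of all 18 libraries. At 150 nM, where 23.3% of all genes were called, these were LBR (0.72), LMNB1 (0.52), TMPO (0.52) and LMNB2 (0.28). At 500 nM, where 46.4% of all genes were called, these were LMNA (1.46), TMPO (0.58), LMNB1 (0.55), LMNB2 (0.52), LBR (0.47) and EMD (0.35). The lines also differ in medium, and the 2 cannot be told apart.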

How the results depend on the processing

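Of the recomputed values for single members, 22 changed sign while called in the reported fit or in the alternative, 51 passed the threshold newly, 41 no longer passed it and 1746 kept their side of it. Changes of sign among values called in neither are not counted among the 22; they occurred for small differences such as EMD in OCI-Ly1 at 500 nM and LBR in OCI-Ly1 at 150 nM. Of the counts and ratios, 237 recomputed values moved little and 3 moved. On uncentred log2(TPM + 1) and log2(TPM + 0.1), 10 members differed in their 500 nM response between lines. In the reported fit 6 did, where 46.4% of all genes were called. The share of all genes on these 2 alternatives is not given here. With 1 added to each TPM the OCI-Ly1 ratio of LMNA to B-type lamin differed by 0.83, against 1.84.

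The 22 sign changes were these, with values on log2(TPM + 1) and then log2(TPM + 0.1). In TMD8 the SUN1 change at 500 nM was -0.13 on both against DMSO, and -0.0011 and -0.0013 against 150 nM. The line difference at 500 nM was 0.33 and 0.34 for LEMD3, 0.34 and 0.35 for SUN1, and 0.40 and 0.45 for SUN2. With DMSO, OCI-Ly1 minus TMD8 was 0.22 and 0.23 for LMNB2, 0.043 and 0.045 for EMD, 0.32 and 0.33 for BANF1, 0.85 and 0.88 for SUN1, and 0.55 and 0.58 for SUN2. For SUN1 it was also 0.12 with library size as the only scaling and 0.12 on centred log2(TPM + 1). The cause was not tested.

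Scaling moved the split of all calls, over the same comparisons in which the members were counted. The share of calls that were higher in OCI-Ly1 at 500 nM was 51.6%, against 64.0% with library size only, 71.9% on log2(TPM + 1) and 32.3% on its centred form. In TMD8 it was 43.5% at 150 nM, against 60.5% with library size only and 21.3% on log2(TPM + 1), and 49.3% at 500 nM, against 59.4% and 18.8%. The share of genes called in OCI-Ly1 at 150 nM was 0.889%, against 1.55% with DESeq2, 1.58% with no filter and 0.32% on centred log2(TPM + 1).

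Leaving out each library gave 8 members called in OCI-Ly1 at 500 nM, 7 to 8 in TMD8 at 150 nM and 8 to 9 at 500 nM, and 5 to 7 members differing between lines at 500 nM. The deviations of same-numbered libraries were correlated between groups, and r was over 0.1 in 2 of 9 such pairs per line. All pairs over 0.1 were replicates 1 and 3 between DMSO and 150 nM. For OCI-Ly1 replicates 1, 2 and 3, r there was 0.322, 0.0387 and 0.321, against -0.353 to 0.0584 for differently numbered pairs. For TMD8 it was 0.202, -0.0784 and 0.147, against -0.236 to 0.183. Same-numbered pairs with a 500 nM library had r between -0.0892 and 0.0443. These values do not settle whether the numbers pair samples. With the replicate number as a block, LEMD3 (0.14, adjusted p = 0.0377) and SUN2 (-0.20, adjusted p = 0.0414) were also called by edgeR in OCI-Ly1 at 500 nM against 150 nM, and no other member's call changed. LMNA in OCI-Ly1 rests on 9 to 64 counts, which limits its precision.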

Other observations

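The genes outside the list whose 4 log2 changes against DMSO (OCI-Ly1 at 150 nM and 500 nM, TMD8 at 150 nM and 500 nM) lay nearest to a member's are given as a description, over 10281 genes and with each line's comparisons sharing DMSO libraries. Nearest to LMNA were DUSP5, a MAP kinase phosphatase gene, and CLCN4, a chloride transporter gene, at Euclidean distances of 0.348 and 0.423 (median over all genes 1.77). Nearest to LMNB1 were TMTC4 and YWHAH at 0.0416 and 0.0586 (median 1.08). Nearest to LBR were CACYBP and NRM, the nurim gene, at 0.117 and 0.12 (median 1.196). Nearest to SUN1 were LRP6 and GPCPD1 at 0.0335 and 0.0372 (median 0.571).

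Among the marker genes, COL1A1, a collagen gene on the epithelial and stromal list, rose in TMD8 from 3.50 ± 0.408 CPM with DMSO to 29.8 ± 0.366 CPM with 500 nM (SD, n = 3; edgeR log2 change 3.08, adjusted p = 2.4e-12). The B cell markers went both ways at 500 nM. In OCI-Ly1 3 of 9 tested were higher and 4 lower, where 27.7% of all genes were called higher and 25.9% lower. In TMD8 2 of 8 were higher and 5 lower, where 29.9% of all genes were called higher and 30.7% lower. MME fell most in OCI-Ly1 (log2 change -0.51) and BCL6 rose most in TMD8 (0.37). The B cell transcription factor gene IRF4 rose in OCI-Ly1 and fell in TMD8. Its CPM was 230.4 ± 13.5 with DMSO and 441 ± 17.4 with 500 nM in OCI-Ly1, against 2735 ± 145 and 1735 ± 3.90 in TMD8 (SD, n = 3).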
